A study of Homo sapiens with 8 samples.

Results

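The genes described here are 10 genes of retinoid response and metabolism, picked by name from the 23391 genes of the deposited table. They are RARRES1, RARRES2 and RARRES3, the receptor gene RARB, the retinal dehydrogenases ALDH1A1 and ALDH1A3, the retinoic acid hydroxylases CYP26A1 and CYP26B1, the carrier CRABP2 and the retinal reductase DHRS3. RARRES3 was the starting point, because it was lower with Esrrb and lower with DY131 in both cell pools. Its own levels are therefore a description with no test, and the question was whether the other 9 genes fell with it.

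RNA-Seq counts came from DU145, an established human prostate cancer cell line, in 8 libraries that form 4 groups of 2 biological replicates. DU145-pc3.1 cells carry the empty pcDNA3.1-zeo (+) vector and DU145-Esrrb cells the same vector with Esrrb, the estrogen-related receptor beta. Both are pools of stable transfectants kept through 3 weeks of Zeocine selection, and each pool received either vehicle or 3 μM DY131, a synthetic ligand of Esrrb and Esrrg. In the study's methods all RNA came from confluent cells in medium with charcoal-stripped serum, and the length of the DY131 treatment is not given in the sources used here. ESRRB was counted at 8.83 and 9.11 cpm in DU145-Esrrb cells and at 13.7 and 16.2 cpm after DY131, whereas the 4 libraries of DU145-pc3.1 cells held between 0 and 3 reads on it.

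Each library held between 7858743 and 11551690 counted reads. The 5 epithelial markers summed to between 2503 and 3166 cpm in all libraries. The prostate secretory genes KLK2 and KLK3 had 0 reads in all libraries. Of the leukocyte and fibroblast markers, CD3E and DCN were at 0. The 4 fibroblast markers, mostly COL1A1, summed to between 2.74 and 5.79 cpm. The 4 leukocyte markers, almost all CD14, summed to 0.763 to 1.41 cpm with vehicle and 0.298 to 0.565 cpm with DY131, and the part of such cells in the DY131 results was not tested. In libraries made from whole cultures, fewer cells that express a gene and less RNA per cell cannot be told apart.

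Retinol is taken up and stored by cells, oxidised to retinal and then to retinoic acid, which binds the RAR receptors on DNA. Dehydrogenases of the ALDH1A family make retinoic acid, DHRS3 turns retinal back into retinol, CRABP2 carries retinoic acid to the nucleus, and CYP26 enzymes break it down. Several of these genes, CYP26A1, DHRS3, CRABP2 and RARB among them, are themselves induced by retinoic acid and serve as readouts of the pathway. Charcoal treatment of serum removes small lipophilic molecules, retinoids included.

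Retinoic acid receptors bind a short hexamer that stands in direct repeat on the DNA, and the spacing of 5 bases (DR5) is the classical retinoic acid response element. RefSeq promoter windows on GRCh38.p14, from 250 bases before to 50 bases after each start, were held for 9 of the 10 genes in 15 windows. RARRES3 had none. Both strands were searched for DR1, DR2 and DR5 repeats of the degenerate receptor hexamer, and a DR5 stood in windows of RARB and CYP26A1. They are shown because these genes hold the element through which retinoic acid is known to act on them. Capitals mark the hexamers, both runs are written on the plus strand, and in CYP26A1 the repeat reads on the minus strand. The first lies at chr3:25428204-25428232 and the second at chr10:93073797-93073825.
RARB: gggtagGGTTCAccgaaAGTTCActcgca
CYP26A1: taaagaTGAACTttgggTGAACTaattgt

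The repeat ended 37 bases before the start at 25428263 in RARB and 74 bases before the start at 93073893 in CYP26A1. In CYP26A1 it also lies downstream of another start of the gene, at 93073475. A DR5 was found in 0.0883% of 35116 windows of all genes. None of the 15 windows held a DR1 or DR2 repeat, which 0.131% and 0.0399% of all windows held, or the Esrrb response element TCAAGGTCA, which 0.353% held. The single hexamer AGGTCA, in 13.8% of all windows, was found at another start of RARB and, on the opposite strand, at 1 start of DHRS3. The interferon-stimulated core, GAAA followed after any 2 bases by GAAA and held by 3.57% of all windows, was found just after the upstream start of CYP26A1. A match is a string of letters and not a bound site.

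RARRES3 (NM_004585) encodes a small phospholipase and acyltransferase that retinoids and interferons induce. It lies on chromosome 11 of GRCh38 from 63536809 to 63546462 on the plus strand. In vehicle-treated DU145-pc3.1 cells it was counted 103 and 89 times, or 9.83 and 7.84 cpm. In DU145-Esrrb cells it stood at 4.92 and 3.40 cpm, and in DY131-treated DU145-pc3.1 cells at 2.43 and 4.17 cpm. The lowest level was in DY131-treated DU145-Esrrb cells, with 1.17 and 1.47 cpm from 9 and 13 reads. The order of the group means was thus 8.83 ± 1.41, 4.16 ± 1.08, 3.30 ± 1.23 and 1.32 ± 0.209 cpm (SD, n = 2). The middle 2 groups overlapped, and every other pair of groups was apart.

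The fitted log2 fold change of RARRES3 was -1.07 (SE 0.23) with Esrrb in vehicle-treated cells. With DY131 it was -1.42 (SE 0.25) in DU145-pc3.1 cells and -1.64 (SE 0.36) in DU145-Esrrb cells, and with Esrrb under DY131 it was -1.29 (SE 0.39). The DY131 responses of the 2 pools differed by -0.22 (SE 0.46) on the log2 scale. The value for Esrrb in vehicle-treated cells lay between -1.37 and -0.84 when 1 library at a time was left out, with the smallest fall without DU145-Esrrb replicate 2.

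**Figure D1:**
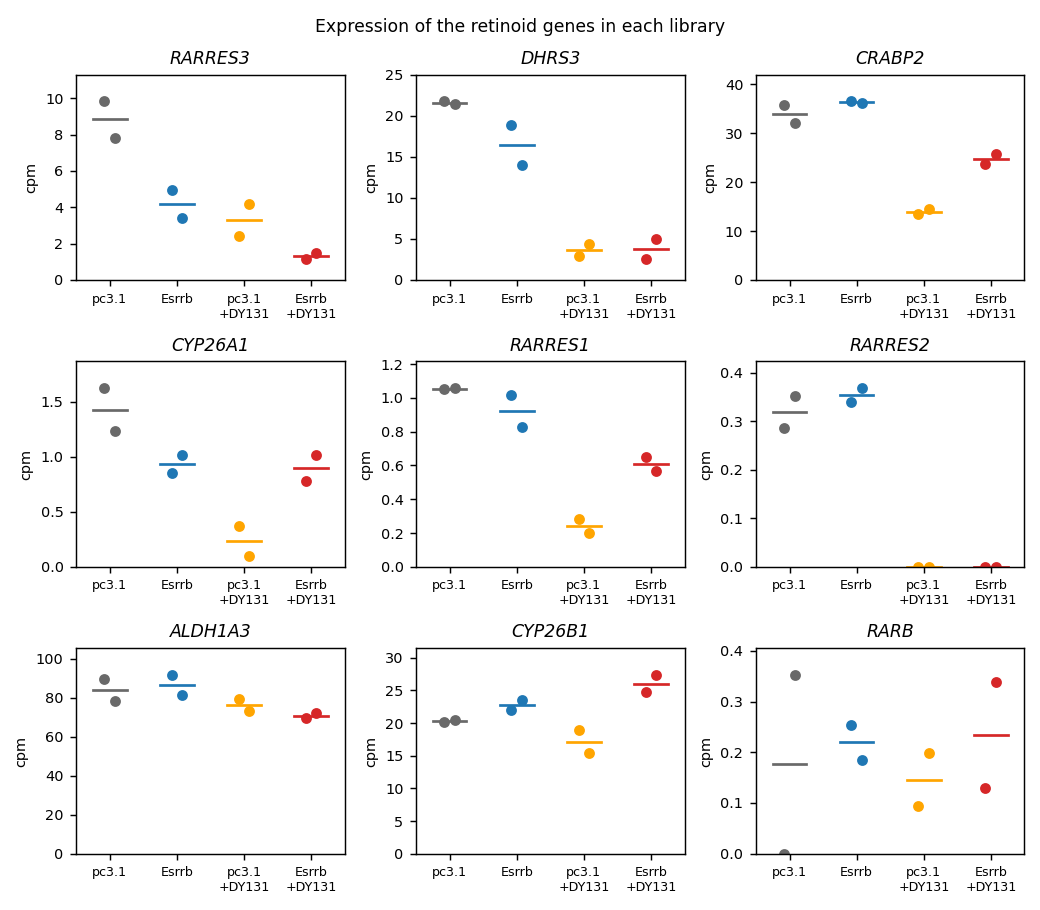
Normalised expression (cpm, vertical axes from 0) of 9 of the 10 retinoid genes in each library, with points for libraries and bars for the means of the 2 libraries of a group; ALDH1A1 had 0 reads throughout. RARRES3 steps down from 8.83 to 1.32 cpm over the 4 groups, DHRS3 is below 5 cpm in the 4 DY131 libraries, and CRABP2 and CYP26A1 are lowest in DY131-treated DU145-pc3.1 cells.

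Of the 10 genes, 7 passed the filter of at least 1 cpm in at least 2 libraries and could be tested. The test was edgeR's quasi-likelihood F test, and p-values were adjusted by Benjamini-Hochberg over all 13856 genes that passed. Calls needed a log2 fold change of 1 or more in size as well as an adjusted p under 0.05. RARRES3, DHRS3, CRABP2, ALDH1A3 and CYP26B1 were at 1 cpm or more in all 8 libraries. RARRES1 and CYP26A1 passed only through vehicle-treated libraries, so the filter let them in only because they were not low there. Per kb of transcript, the means in DU145-pc3.1 cells were 32.9 cpm for CRABP2, 21.4 for ALDH1A3, 12.5 for DHRS3, 11.8 for RARRES3 and 4.29 for CYP26B1. RARRES1 and CYP26A1 were at 1.26 and 0.672 cpm per kb, and of the tested genes only 13.3% and 7.47% had a lower level.

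With Esrrb in vehicle-treated cells, none of the 6 tested genes other than RARRES3 was called, against 0.577% of all tested genes called in either direction. None of the 6 passed the adjusted p alone, which 4.18% of all tested genes passed, by edgeR's quasi-likelihood test or DESeq2, and at an unadjusted p under 0.05 by edgeR only DHRS3 passed. DHRS3 was measured at 21.8 and 21.4 cpm in DU145-pc3.1 cells and 18.9 and 14.0 cpm in DU145-Esrrb cells. Its libraries did not overlap, yet the log2 fold change of -0.39 (SE 0.17) had an adjusted p of 0.257. CYP26A1 gave -0.61 (SE 0.42, adjusted p = 0.509) and RARRES1 -0.18 (SE 0.41, adjusted p = 0.887), both from about 10 reads a library. CRABP2, ALDH1A3 and CYP26B1 gave 0.10, 0.04 and 0.17 with standard errors of 0.09, 0.08 and 0.11. The median of the 6 genes was -0.07, beside 0.00 for all tested genes.

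With DY131 in DU145-pc3.1 cells, DHRS3, CYP26A1, RARRES1 and CRABP2 fell. These are 4 of the 6 tested genes other than RARRES3, where 3.16% of all tested genes were called lower and 4.19% in either direction. Since RARRES1 and CYP26A1 passed the filter only through the vehicle-treated libraries, this count and the median of -1.68 are a description and carry no support of their own. Among the 4 genes at 1 cpm or more in every library, DHRS3 and CRABP2 fell and ALDH1A3 and CYP26B1 did not pass the test. The comparison used the same DU145-pc3.1 libraries as the comparison of Esrrb in vehicle-treated cells. Replicates agreed least in DY131-treated DU145-pc3.1 cells, with a chi-square per degree of freedom of 7.3. It was 2.67 in DU145-pc3.1, 1.83 in DU145-Esrrb and 1.29 in DY131-treated DU145-Esrrb cells, while the model used 1 spread per gene. The study itself reported no gene as differentially expressed with DY131 in cells without Esrrb. On the deposited counts edgeR's exact test, the kind the study used, also called RARRES3 and these 4 genes at the same thresholds. The reason for the difference was not tested.

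DHRS3 (NM_004753), the enzyme that reduces retinal to retinol, had the lowest log2 fold change of the 7 genes. It lies on chromosome 1 of GRCh38 from 12567910 to 12617731 on the minus strand. From 21.8 and 21.4 cpm with vehicle it went to 2.90 and 4.36 cpm with DY131, with 31 and 44 reads in place of 228 and 243. All DY131 libraries were far below the vehicle libraries. The log2 fold change was -2.57 (SE 0.22, adjusted p = 6.79e-07, edgeR quasi-likelihood test), a 5.96-fold fall.

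CRABP2 (NM_001199723), the carrier that delivers retinoic acid to its receptors, lies on chromosome 1 from 156699606 to 156705816 on the minus strand. It stood at 35.8 and 32.1 cpm with vehicle and at 13.5 and 14.5 cpm with DY131 in DU145-pc3.1 cells. The replicates lay close together in both groups and the groups were well apart. The log2 fold change was -1.28 (SE 0.10, adjusted p = 4.19e-07, edgeR quasi-likelihood test), a 2.43-fold fall.

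CYP26A1 (NM_000783), the enzyme that clears retinoic acid, lies on chromosome 10 from 93073475 to 93077890 on the plus strand. Its DR5 element is printed above. It had 17 and 14 reads with vehicle and 4 and 1 reads with DY131, or 1.62 and 1.23 against 0.374 and 0.0992 cpm. The log2 fold change was -2.50 (SE 0.58, adjusted p = 0.00298, edgeR quasi-likelihood test). The filter admitted CYP26A1 through vehicle-treated libraries alone, which limits this test; with no filter on low counts the adjusted p was 9.20e-04. It rests on 5 reads in the treated libraries, and it was -3.67 without DU145-pc3.1+DY131 replicate 1 and -1.89 without replicate 2. In GENCODE 29, 33.9% of the 50-base windows of CYP26A1 are also found in transcripts of other genes, so part of these reads may have been assigned otherwise.

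RARRES1, a membrane protein gene named for its induction by a retinoid, had 11 and 12 reads with vehicle and 3 and 2 reads with DY131. This was 1.05 and 1.06 against 0.280 and 0.198 cpm. The log2 fold change was -2.08 (SE 0.57, adjusted p = 0.00960, edgeR quasi-likelihood test), and DESeq2 gave no adjusted p for it. The same limit of the filter holds here, and with no filter the adjusted p was 0.0165.

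RARRES2, the gene of the secreted chemoattractant chemerin, was too sparse to be tested. It had 3 and 4 reads in vehicle-treated DU145-pc3.1 cells, 4 and 4 reads in vehicle-treated DU145-Esrrb cells and 0 reads in each of the 4 DY131 libraries. A count of 0 allows up to 3 reads, or between 0.280 and 0.391 cpm in these libraries. The vehicle-treated libraries held 0.286 to 0.368 cpm, within or near that limit for any single library. All 4 of them held reads and none of the 4 DY131 libraries did, and no test was made of this. Such floors cover counting error only.

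ALDH1A3, which makes retinoic acid from retinal, was the most counted of the 10 genes, with 89.9 and 78.2 cpm with vehicle and 79.5 and 73.4 cpm with DY131 in DU145-pc3.1 cells. The groups overlapped, and the log2 fold change was -0.13 (SE 0.08, adjusted p = 0.215). CYP26B1, the second retinoic acid hydroxylase, stood at 20.1 and 20.4 cpm with vehicle and at 19.0 and 15.4 cpm with DY131. Its log2 fold change was -0.24 (SE 0.12, adjusted p = 0.134). ALDH1A1 had 0 reads in all 8 libraries, and RARB, the receptor gene with the DR5 element, had between 0 and 4 reads per library in no order by group.

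**Figure D2:**
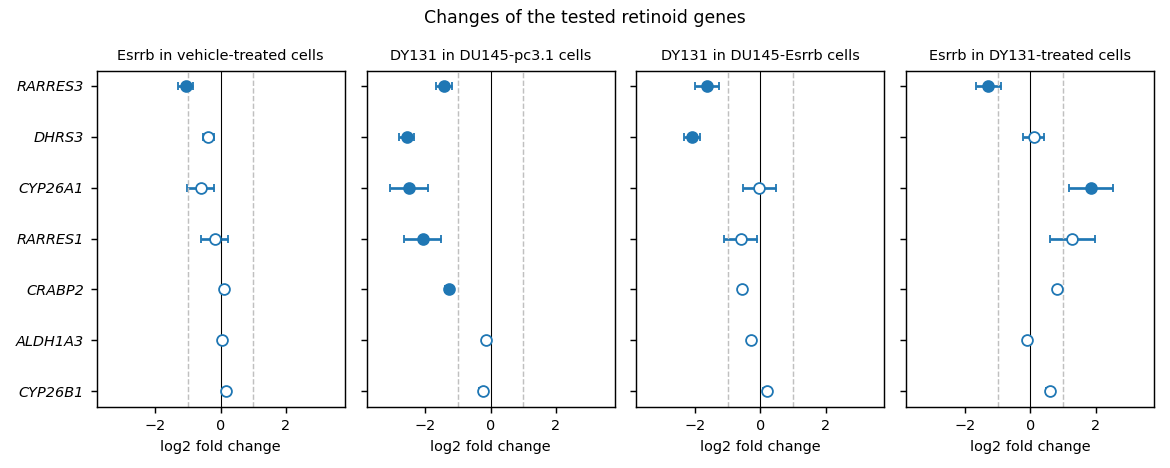
Log2 fold changes (horizontal axes) with standard errors of the 7 tested retinoid genes in 4 comparisons, where filled points passed the adjusted p and the fold threshold marked by dashed lines. RARRES3 is filled in every panel and was picked for its falls in all panels but that of Esrrb under DY131. DHRS3 is at -2.57 and -2.09 with DY131 in the 2 pools, and CYP26A1 turns from -2.50 with DY131 in DU145-pc3.1 cells to 1.86 with Esrrb under DY131.

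With DY131 in DU145-Esrrb cells, DHRS3 was the gene that fell together with RARRES3. It was 1 of the 6 other tested genes, where 9.04% of all tested genes were called lower and 12% in either direction. DHRS3 stood at 18.9 and 14.0 cpm with vehicle and at 2.61 and 4.97 cpm with DY131, from 223 and 152 against 20 and 44 reads. The groups did not overlap, and the log2 fold change was -2.09 (SE 0.24, adjusted p = 2.48e-06, edgeR quasi-likelihood test), a 4.26-fold fall. CRABP2 fell by less than the fold threshold, from 36.5 and 36.1 cpm to 23.7 and 25.7 cpm. Its log2 fold change was -0.55 (SE 0.10, adjusted p = 1.71e-04, edgeR quasi-likelihood test).

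ALDH1A3 also passed the adjusted p alone in this pool, where 29.5% of all tested genes passed it in the lower direction. It went from 91.7 and 81.3 cpm to 69.8 and 72.0 cpm, a log2 fold change of -0.29 (SE 0.08, adjusted p = 0.00830, edgeR quasi-likelihood test). RARRES1, with 12 and 9 reads against 5 and 5 reads, gave -0.60 (SE 0.50, adjusted p = 0.325). CYP26A1 had 10 and 11 reads with vehicle and 6 and 9 reads with DY131, and its libraries overlapped in cpm at a log2 fold change of -0.03 (SE 0.49, adjusted p = 0.963). CYP26B1 gave 0.20 (SE 0.11, adjusted p = 0.148). The median of the 6 genes was -0.42, beside 0.00 for all tested genes.

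In each comparison that used the DY131-treated DU145-Esrrb libraries, genes whose transcripts have many exon junctions were lower as a class. The tenth of genes with the largest share of 50-base windows across a junction had a median log2 fold change of -0.55 with DY131 in this pool, and the tenth with the smallest share 0.26. In the class of DHRS3 the median was -0.01, in that of CRABP2 and RARRES3 -0.10 and in that of CYP26B1 0.26. After a correction for this share, DHRS3 gave -2.17 (adjusted p = 2.12e-06, edgeR quasi-likelihood test), CRABP2 -0.50 and RARRES3 -1.57, while CYP26B1 went from 0.20 to -0.01.

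An interaction term tested whether DY131 acted differently in the 2 pools. CRABP2 fell less in DU145-Esrrb cells, by 0.73 (SE 0.14) on the log2 scale, with an adjusted p of 0.00135 by edgeR's quasi-likelihood test, and 16.1% of all tested genes passed the adjusted p alone in this direction. CYP26A1 differed by 2.47 (SE 0.79, adjusted p = 0.0246, same test) and was the 1 gene of the 6 that was called higher, where 1.54% of all tested genes were called higher and 6.28% in either direction. With no filter the adjusted p of CYP26A1 was 0.0264. DESeq2 gave 0.147, and without DU145-pc3.1+DY131 replicate 2 the value was 1.86 with an adjusted p of 0.0816. For DHRS3 the difference was 0.48 (SE 0.36, adjusted p = 0.324) and for CYP26B1 0.44 (SE 0.17, adjusted p = 0.0538). RARRES1 gave 1.47 (SE 0.80, adjusted p = 0.171) and ALDH1A3 -0.15 (SE 0.12, adjusted p = 0.339). After the junction correction the differences were 0.77 for CRABP2, 2.39 for CYP26A1 and 0.40 for DHRS3. They were 0.23 for CYP26B1, 1.485 for RARRES1 and -0.22 for ALDH1A3.

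**Figure D3:**
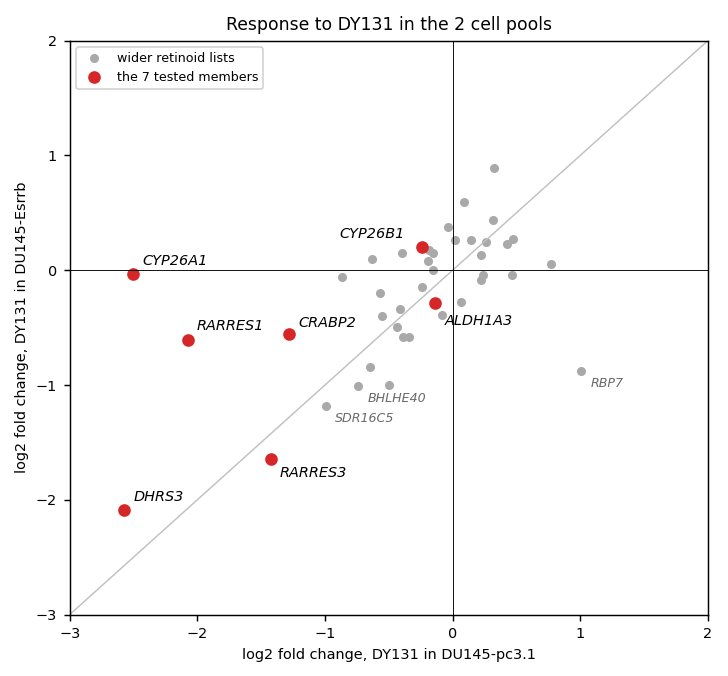
Log2 fold change with DY131 in DU145-Esrrb cells (vertical axis) against that in DU145-pc3.1 cells (horizontal axis) for the 7 tested members and the 35 tested genes of the wider retinoid lists, with the line of equal response. RARRES3 and DHRS3 lie low on both axes, CRABP2, RARRES1 and CYP26A1 lie above the line, and RBP7 is at 1.01 in DU145-pc3.1 and -0.88 in DU145-Esrrb cells.

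Under DY131, the pools were also compared with each other. This comparison shares its libraries with both DY131 comparisons. CYP26A1 was the 1 gene of the 6 called higher in DU145-Esrrb cells, where 2.15% of all tested genes were called higher and 8.21% in either direction. It had 4 and 1 reads in DU145-pc3.1 and 6 and 9 reads in DU145-Esrrb cells, a log2 fold change of 1.86 (SE 0.67, adjusted p = 0.0295, edgeR quasi-likelihood test). The adjusted p was 0.119 with DESeq2, 0.164 without DU145-pc3.1+DY131 replicate 2, 0.0576 without DU145-Esrrb+DY131 library a and 0.158 without library b.

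CRABP2 and CYP26B1 passed the adjusted p below the fold threshold in the same comparison, where 25.1% of all tested genes passed it in the higher direction. CRABP2, at 13.5 and 14.5 cpm in DU145-pc3.1 and 23.7 and 25.7 cpm in DU145-Esrrb cells, gave 0.82 (SE 0.11, adjusted p = 2.35e-05, edgeR quasi-likelihood test). CYP26B1, at 19.0 and 15.4 against 24.8 and 27.4 cpm, gave 0.60 (SE 0.12, adjusted p = 6.89e-04, same test). After the junction correction these were 0.88 and 0.39. No member other than RARRES3 was called lower here, where 6.06% of all tested genes were, and DHRS3 overlapped between the pools at 0.10 (SE 0.32, adjusted p = 0.823).

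Across the 8 libraries, the log2 cpm of RARRES3 was compared with that of every other tested gene. These are correlations over libraries that share their treatments, given as a description. Among the members Pearson's r with RARRES3 was 0.833 for DHRS3, rank 1136 of 13855 genes, and 0.717 for ALDH1A3. It was 0.435 for RARRES1, 0.409 for CRABP2, 0.262 for CYP26A1 and -0.508 for CYP26B1.

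The 10 genes most like RARRES3 were ABAT, CDH1, H19, PADI2, IL20RB, HSPB1, C19orf70, SNAP23, RIMS4 and CLDN4, with r between 0.980 and 0.992. CDH1, the epithelial adhesion protein E-cadherin, had group means of 161 ± 5.81, 111 ± 4.60, 95.9 ± 24.1 and 67.8 ± 7.73 cpm in the order of the groups of RARRES3. CLDN4, a tight junction protein, had 57.0 ± 12.2, 38.1 ± 9.46, 27.3 ± 2.85 and 13.5 ± 0.521 cpm. PADI2, a protein arginine deiminase, had 20.8 ± 0.762, 10.1 ± 0.490, 9.57 ± 2.04 and 4.40 ± 0.499 cpm (SD, n = 2 each). None of the 10 is on the retinoid lists or on the list of interferon-induced genes described below. Of the 13856 tested genes, those lists hold only 7 members, 35 further retinoid genes and 38 interferon-induced genes. Most sets of 10 genes would therefore hold none of them, and no conclusion is drawn from this.

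**Figure D4:**
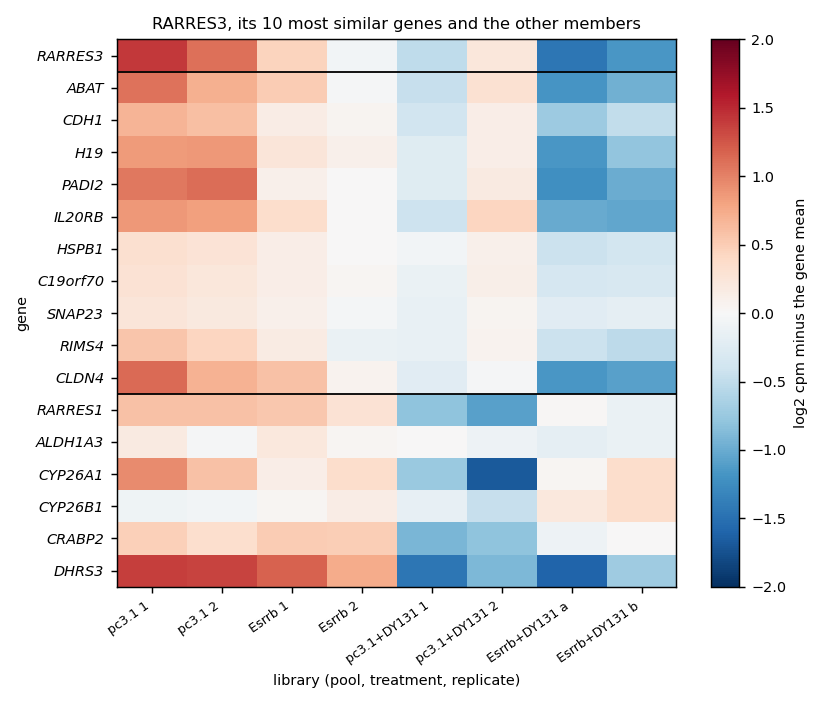
Log2 cpm minus the mean of each gene (colour, red above and blue below) in the 8 libraries (columns) for RARRES3, the 10 genes most correlated with it and the other 6 tested members (rows, separated by lines). The 10 genes step down in the order of RARRES3, whereas CRABP2, RARRES1 and CYP26A1 are lowest in the pair of DU145-pc3.1 libraries that received DY131.

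The wider retinoid pathway was read from lists of 63 further genes, of which 35 were tested. With Esrrb in vehicle-treated cells none was called by edgeR's quasi-likelihood test, the median log2 fold change was -0.03, and the 1 gene past the adjusted p, GPRC5A at 0.48, was higher. With DY131 in DU145-pc3.1 cells, 8 of the 35 were higher and 11 lower by the adjusted p alone, beside 18.9% and 18.5% of all tested genes. In DU145-Esrrb cells DY131 gave 7 higher and 12 lower, beside 29.2% and 29.5%. The medians were -0.15 and -0.04. GPRC5A was named after its value was seen.

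Of the receptor list, 3 of 5 genes were tested and none was called. RARA and RARG passed the adjusted p lower with DY131 in both pools, where 18.5% and 29.5% of all tested genes did. Their log2 fold changes were -0.34 and -0.41 in DU145-pc3.1 and -0.58 and -0.33 in DU145-Esrrb cells. The third gene, RXRA, passed in neither pool, at -0.18 in DU145-pc3.1 and 0.18 in DU145-Esrrb cells. In DU145-Esrrb cells RXRA was at 0.34 after the junction correction. RARA and RARG were named after their values were seen. The 5 corepressors and coactivators of RAR were all tested and none was called. Of the RARRES3 paralogs 2 of 4 were tested and none was called, and the 3 receptors for the RARRES2 protein were not tested.

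From the wider lists 3 of the 35 tested genes were called in at least 1 of the 5 comparisons. In the single comparisons 0.577%, 4.19%, 12%, 8.21% and 6.28% of all tested genes were called. The share called in at least 1 of them was not counted and cannot be below 12%. The 3 genes are therefore given as a description. RBP7, a cellular retinol-binding protein, stood at 8.11 and 10.7 cpm in DU145-pc3.1 and 10.3 and 11.1 cpm in DU145-Esrrb cells with vehicle. With DY131 it was at 18.1 and 19.8 cpm in DU145-pc3.1 cells. In DU145-Esrrb cells 46 and 50 reads gave a mean of 5.82 ± 0.244 cpm (SD, n = 2). It thus rose in one pool and was lower in the other, and the responses differed by -1.89 (SE 0.23, adjusted p = 2.33e-05, edgeR quasi-likelihood test), or -1.70 after the junction correction. Under DY131 it was called lower in DU145-Esrrb than in DU145-pc3.1 cells, also at -1.70 (SE 0.17, adjusted p = 8.38e-07, same test).

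SDR16C5, a retinol dehydrogenase, went from 15.5 and 15.7 to 6.92 and 8.73 cpm with DY131 in DU145-pc3.1 cells, a log2 fold change of -0.996 just short of the fold threshold. In DU145-Esrrb cells it went from 16.0 and 16.4 to 6.91 and 7.35 cpm and was called at -1.18 (SE 0.15, adjusted p = 7.90e-06, edgeR quasi-likelihood test). BHLHE40, a transcriptional repressor that retinoic acid induces, went from 154 and 151 to 89.9 and 93.0 cpm in DU145-pc3.1 cells. In DU145-Esrrb cells it went from 134 ± 4.86 to 66.8 ± 4.24 cpm (SD, n = 2), and the change on the log2 scale was -1.01 (SE 0.07, adjusted p = 1.01e-08, same test). Both were lower with DY131 in each pool.

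RARRES3 is also an interferon-induced gene, so 49 interferon-induced genes were listed beside the retinoid genes, and 38 were tested. With Esrrb in vehicle-treated cells 12 of the 38 were called lower and none higher, at a median log2 fold change of -0.86, beside 0.397% of all tested genes called lower. SAMD9L, a regulator of endosomes and translation, gave -2.81, from 24 and 25 reads in DU145-pc3.1 and 5 and 2 reads in DU145-Esrrb cells. IFI44 gave -2.30. RSAD2, the antiviral enzyme viperin, gave -1.72, from 19 and 23 against 6 and 7 reads. The RNA helicase DDX60 gave -1.61. The adjusted p of these 4 lay between 2.88e-04 and 0.0398 by edgeR's quasi-likelihood test. SAMD9L and RSAD2 passed the filter only through DU145-pc3.1 libraries, where they were high, which limits their tests. The 4 were picked for the size of their changes, and the count of 12 and the median are a description.

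With DY131 in DU145-pc3.1 cells 2 of the 38 interferon-induced genes were called lower, at a median of -0.18, beside 3.16% of all tested genes. In DU145-Esrrb cells 6 were called lower with DY131, at a median of -0.47, beside 9.04%. With Esrrb under DY131, 20 were called lower, at a median of -1.14, beside 6.06%. Among these 20 were SAMD9L and RSAD2, with 0 reads in both DY131-treated DU145-Esrrb libraries, which the filter admitted only through DU145-pc3.1 libraries. The counts and medians of this list are therefore a description and carry no support of their own. The counts, medians and shares of the last 2 comparisons were taken without the junction correction. RARRES3 was thus low together with many interferon-induced genes in the Esrrb comparisons, and with DHRS3 in both DY131 comparisons. None of the other 6 tested members was called lower in the Esrrb comparisons, where 0.397% and 6.06% of all tested genes were. None of 6 is near those shares and is no result about the members. The interferon-induced genes were listed with earlier results of these data known. The part of either group of genes in the fall of RARRES3 was not tested.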

How the data were processed

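The authors made TruSeq stranded mRNA libraries and sequenced 50-base single reads. After trimming (FASTX-Toolkit) and mapping (TopHat2, hg18), they deposited raw counts per gene from MULTICOM-MAP. Whether their counting used strand is not given in the sources used here. The submitters' processing notes name edgeR.

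The columns of both DY131-treated DU145-Esrrb libraries share 1 heading, so these are called a and b. Genes below 1 cpm in all but 1 library or in all libraries were dropped, and counts were scaled by TMM (factors 0.971 to 1.02). All 8 libraries entered 1 edgeR 4.0.16 quasi-likelihood model (R 4.3.3) with 4 groups. Cpm use the effective library sizes. Correlations used log2 cpm with a prior count of 2. The steps were tested on simulated data. Transcript lengths, junction shares and positions come from GENCODE 29 on GRCh38, not hg18; RefSeq identifiers matched 22010 genes, the listed symbol 721 and other symbols 140.

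The members and all lists were chosen with earlier results of these data known. The text names the members, called genes of the wider retinoid lists, the 10 genes most correlated with RARRES3 and the 4 interferon-induced genes with the largest changes among those called with Esrrb in vehicle-treated cells. Alternatives were edgeR's exact test, DESeq2 1.42.0, other scaling and filters, fewer libraries, no fold threshold, a replicate block and a junction correction. Some marker genes are not reported here.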

Additional observations from a re-analysis of the deposited data

Results flagged for a closer look

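The response to DY131 differed between the cell pools for CYP26A1 and CRABP2 by the interaction term of edgeR's quasi-likelihood test. CYP26A1 differed by 2.47 (SE 0.79, adjusted p = 0.0246) on the log2 scale, from 17 and 14 to 4 and 1 reads in DU145-pc3.1 cells and from 10 and 11 to 6 and 9 reads in DU145-Esrrb cells. CYP26A1 passed the filter on low counts through vehicle-treated libraries alone, and its adjusted p was 0.0264 with no filter and 0.147 with DESeq2. CRABP2 differed by 0.73 (SE 0.14, adjusted p = 0.00135), with a fall in every DY131 library of both pools.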

How the results depend on the processing

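Counts of called members, RARRES3 included, were 1 for Esrrb in vehicle-treated cells, 5 for DY131 in DU145-pc3.1 and 2 for DY131 in DU145-Esrrb. They were 2 for Esrrb under DY131 and 1 for the interaction. In the same order, 0.577%, 4.19%, 12%, 8.21% and 6.28% of all tested genes were called. RARRES3 was picked for its falls, and RARRES1 and CYP26A1 passed the filter only through vehicle-treated libraries. These counts are therefore a description and carry no support of their own. With DESeq2 they were 0 for Esrrb with vehicle, 1 for Esrrb under DY131 and 0 for the interaction. With at least 10 counts in every library, which removes RARRES3, RARRES1 and CYP26A1, they were 0, 2, 1, 0 and 0. With no fold threshold they were 4, 4 and 2 for DY131 in DU145-Esrrb, Esrrb under DY131 and the interaction. With only the 4 libraries compared, Esrrb under DY131 gave 1. Leaving out 1 library at a time gave 0 to 1, 5 to 5, 2 to 2, 0 to 2 and 0 to 1. The Esrrb call of RARRES3 was lost without DU145-pc3.1 replicate 1 or 2 or DU145-Esrrb replicate 2. Under DY131 its call was lost without DU145-pc3.1+DY131 replicate 2 or DU145-Esrrb+DY131 library a. The interaction call of CYP26A1 was lost without DU145-pc3.1 replicate 1, DU145-Esrrb replicate 1, DU145-pc3.1+DY131 replicate 2 or DU145-Esrrb+DY131 library b.

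The replicate block, possible in 6 numbered libraries, gave 0 for Esrrb with vehicle and 5 for DY131 in DU145-pc3.1 cells, against 1 and 5 without it. Same-numbered libraries had deviations that correlated at -0.0685 to 0.0917 over 2 numbers, and they share only a number. The numbers are those of the sample titles, and the column headings of some libraries carry other numbers. The block therefore rests on a pairing that the labels leave uncertain. No paired analysis was possible for the other comparisons because 2 columns carry no number.

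Directions turned only for values that were not called. With 1 library left out at a time, ALDH1A3 with Esrrb and vehicle lay between -0.0547 and 0.148, CYP26A1 with DY131 in DU145-Esrrb between -0.242 and 0.132, and DHRS3 with Esrrb under DY131 between -0.469 and 0.460. The interactions lay between -0.585 and 0.207 for RARRES3 and between -0.0823 and 0.846 for DHRS3. CYP26B1 with DY131 in DU145-Esrrb was at -0.00709 after the junction correction.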
